A study of Mus musculus with 38 samples.

Results

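The genes described here encode the integrins, the laminin chains, the chains of type IV collagen and 5 further matrix proteins, the nidogens, perlecan (Hspg2), fibronectin (Fn1) and Sparc. They were chosen by symbol, without use of their values, and number 48 of the 25965 genes of the deposited RNA sequencing table. Of the 48, 26 encode integrin subunits (18 alpha and 8 beta) and 22 encode matrix proteins. A gene entered the test where it reached 0.5 RPM, the reads of a gene per 1000000 reads of the library, in at least 3 of the 14 libraries. In all, 38 of the 48 did so, 20 integrin and 18 matrix genes, among 14980 genes tested.

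A basement membrane is a thin sheet of matrix under epithelia. Laminin trimers, each of an alpha, a beta and a gamma chain, polymerise on the cell surface, type IV collagen forms a second network, and nidogens and perlecan tie the networks together. Integrins are cell surface receptors made of an alpha and a beta subunit that bind these proteins and connect them to the actin cytoskeleton. In the early embryo the epiblast lies on a basement membrane made largely by the neighbouring endoderm, and mouse embryonic stem cells, which derive from the epiblast, attach to their culture plates through integrins.

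The libraries were made from E14, a male (XY) embryonic stem cell line of 129/Ola mice, kept on gelatin without feeder cells. All were first plated in serum medium with the cytokine LIF (S/L). In 2i/L, cells were held for 8 days in serum-free N2B27 medium with LIF, 1 µM of the MEK inhibitor PD03259010 (spelled as in the labels) and 3 µM of the GSK3 inhibitor CHIR99021. MEKi/L held the MEK inhibitor alone for 8 days. GSK3i/L held the GSK3 inhibitor alone for 24 days or for 8 days. S/L cells stayed in serum medium with LIF for 8 days. Each group had 3 RNA libraries (replicates 1 to 3) except GSK3i/L at 24 days, which had 2 (replicates 2 and 3). Every inhibitor medium also lacked serum, so inhibitor and serum cannot be told apart in a comparison with S/L. All libraries came from 1 line, and no label ties a replicate to a culture of its own, so a p-value here reflects the spread among these libraries alone, which may be technical. The 24 bisulfite samples of the series were not analysed here.

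The libraries of 2i/L, MEKi/L and GSK3i/L at 24 days held 10551735 to 15757820 reads. Those of GSK3i/L at 8 days and S/L had been matched by the authors to 1 shared distribution, and their depth, estimated from the values, ran from 8078833 to 18414108 reads. Only 2i/L against MEKi/L and GSK3i/L against S/L stay within 1 of these treatments. The median log2 fold change of all genes was 0.28 for 2i/L against S/L and lay between -0.19 and 0.18 in the other 6 comparisons. A score of each library, the mean log2 level of 36 long transcripts minus that of 40 short ones, was 0.49 to 0.62 in 2i/L, -3.38 and -2.74 after 24 days of GSK3i/L, and -2.71 to -2.29 in S/L. It was 0.71, -1.85 and -1.42 in MEKi/L and 0.52, -1.43 and -2.53 after 8 days of GSK3i/L, so that replicate 1 of both groups stood apart from its partners. The score of every 2i/L library and of every MEKi/L library lay above that of every S/L library. Medium and score thus cannot be told apart in 2i/L against S/L or in MEKi/L against S/L. Nearly all of the 40 short transcripts are of respiratory chain genes (Nduf, Uqcr and Cox). In 2i/L against S/L 33 of the 36 long ones were called higher and 30 of the 40 short ones lower. Whether the score follows transcript length, RNA quality or a response of these genes to the medium was not tested.

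All 10 embryonic stem cell markers were detected in every group. Their summed level was 5096 to 5719 RPM in 2i/L, 5736 to 7739 RPM in MEKi/L and 7483 to 8081 RPM in S/L. It was 7080 and 7737 RPM after 24 days of GSK3i/L and 5791 to 6968 RPM after 8 days. In 2i/L against S/L 3 rose and 5 fell, beside 39.1% and 24.4% of all tested genes. The 3 were Sox2, Nanog and Esrrb, and the 5 were Utf1, Zfp42, Dppa5a, Tdgf1 and Dppa4. The median log2 fold change of the 10 was -0.66, against 0.28 for all genes. Of 14 fibroblast and mesenchyme markers, the summed level was 28.8 to 33.9 RPM in 2i/L, 15.4 to 29.8 RPM in MEKi/L, 8.96 and 10.5 RPM after 24 days of GSK3i/L, 162 to 341 RPM after 8 days of GSK3i/L and 33.3 to 52.3 RPM in S/L. The collagen genes Col3a1 and Col1a1 led that list at 8 days of GSK3i/L, where 11 of its 13 tested genes rose against S/L, beside 16.8% of all tested genes called higher. At 24 days 8 of the 14 had 0 reads, Col3a1 among them, and 12 of the 13 tested fell against 8 days, beside 13.2% of all tested genes called lower. Of the 13, 5 entered the test only with the help of the 8 day libraries and had to differ there. Markers of primitive and parietal endoderm, the cells that make much of the early basement membrane, summed to 31.0 to 39.1 RPM in 2i/L, 35.5 to 47.8 RPM in MEKi/L, 27.2 and 80.6 RPM after 24 days of GSK3i/L, 26.8 to 50.7 RPM after 8 days of GSK3i/L and 23.8 to 27.7 RPM in S/L. In 2i/L, Fst led that sum at 22.7 RPM, and of the 14 tested genes 2 rose against S/L (Thbd and Fst) and 5 fell (Cubn, Pth1r, Amn, Dab2 and Gata6), beside 39.1% and 24.4% of all tested genes, with a median log2 fold change of -0.63. In MEKi/L 4 rose and 2 fell, beside 26.1% and 14.7%. After 8 days of GSK3i/L 5 rose and 0 fell, beside 16.8% and 14.4%, with a median of 0.89. In 2i/L against GSK3i/L at 8 days 1 rose and 7 fell, beside 19.8% and 8.02%. Of the 14, 1 entered the test only with the help of 2i/L, 2 with that of MEKi/L and 2 with that of GSK3i/L at 8 days, so that these counts follow in part from the filter. Of those 18 genes, Afp was at 0 reads in 2i/L, MEKi/L and S/L. Endothelial markers summed to at most 31.9 RPM per library, with Emcn at 0 in every group. Tek led that sum in every group and averaged 15.6 RPM in 2i/L, 23.2 RPM in MEKi/L and 8.72 RPM in S/L. Of the 5 tested, Tek and Kdr rose against S/L in 2i/L and in MEKi/L, and Tie1, Esam and Cldn5 fell. Against GSK3i/L at 8 days, Tek and Kdr rose in both media and Esam fell. The shares of all tested genes were 19.8% and 8.02% for 2i/L, and 12.2% and 5.65% for MEKi/L. Of the 5, 1 entered the test only with the help of S/L. Blood cell markers summed to at most 16.6 RPM per library, led by Csf1r in every group, with Ptprc, Gp9, Lyz2 and Hba-a1 at 0 in every group. These are bulk libraries, in which fewer cells of a type and less RNA per cell cannot be told apart.

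The type IV collagen genes lie in head-to-head pairs, each pair on opposite strands of 1 chromosome, and within each of the pairs with more than a few reads both genes had their highest group mean in the same medium. Coordinates are on GRCm38. Col4a1 (chromosome 8, minus strand, 11198423 to 11312826) and Col4a2 (chromosome 8, plus strand, 11312805 to 11449287) overlap by 22 bases at their first exons. Col4a6 (chromosome X, minus strand, 141165403 to 141474076) and Col4a5 (chromosome X, plus strand, 141475385 to 141689234) start 1308 bases apart. The sequences, 5′ to 3′ on the strand named, are those of the overlap of the first pair, of the upstream bases of both genes of the second, and of the upstream bases of Itga3 (chromosome 11, minus strand, 95044474 to 95076801) and Nid1 (chromosome 13, plus strand, 13437602 to 13512275), an integrin gene that fell and a matrix gene that rose in all 3 media at 8 days. The call of Nid1 in GSK3i/L at 8 days against S/L (1.06) was lost without GSK3i/L replicate 1 or 2 or any 1 of the S/L libraries. The letters were taken from RefSeq on GRCm38.p6, and capitals mark the GC box GGGCGG or its reverse complement CCGCCC.
Overlap of Col4a1 and Col4a2, plus strand, chr8:11312805-11312826: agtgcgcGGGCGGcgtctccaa
Col4a5, plus strand, chrX:141475169-141475384: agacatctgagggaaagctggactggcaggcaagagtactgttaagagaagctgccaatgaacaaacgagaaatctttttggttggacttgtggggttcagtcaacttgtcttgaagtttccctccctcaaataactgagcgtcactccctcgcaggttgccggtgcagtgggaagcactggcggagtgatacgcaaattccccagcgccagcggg
Col4a6, minus strand, chrX:141474077-141474326: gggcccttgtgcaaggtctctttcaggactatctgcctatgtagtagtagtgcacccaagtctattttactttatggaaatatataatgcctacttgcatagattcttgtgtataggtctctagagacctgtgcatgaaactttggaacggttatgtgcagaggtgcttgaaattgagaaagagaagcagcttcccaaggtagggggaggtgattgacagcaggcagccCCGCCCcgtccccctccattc
Itga3, minus strand, chr11:95076802-95076964: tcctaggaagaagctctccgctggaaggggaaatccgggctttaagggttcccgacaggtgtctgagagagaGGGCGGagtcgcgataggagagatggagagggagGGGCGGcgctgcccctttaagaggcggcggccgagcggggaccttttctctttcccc
Nid1, plus strand, chr13:13437352-13437601: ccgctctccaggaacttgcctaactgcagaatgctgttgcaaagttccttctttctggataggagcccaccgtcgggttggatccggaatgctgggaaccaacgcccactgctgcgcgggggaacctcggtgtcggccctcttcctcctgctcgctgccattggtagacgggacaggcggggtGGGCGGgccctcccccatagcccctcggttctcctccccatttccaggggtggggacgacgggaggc
Windows from 250 bases before to 50 after a gene's start were at hand for 31 of the 48 genes. A GC box on either strand was found in 17 of these 31 genes, in 52.9% of their 34 windows, against 35.7% of the 32851 windows of all genes. The letters CTTTGA or TCAAAG, the core that TCF/LEF factors bind, were found in 5 of the 31 genes (Itga1, Itga10, Itgam, Lama2 and Lamb2), in 14.7% of their windows against 16.0% of all windows. The GC box and this core can share 1 end base at most, and a match is a description of the sequence only.

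With 1 inhibitor the matrix genes that passed the test were all higher than in S/L, whereas the integrins were split. In MEKi/L, 14 of the 38 tested genes rose against S/L and 6 fell, beside 26.1% of all tested genes called higher and 14.7% called lower. Of the 18 matrix genes 10 rose and 0 fell by limma at an adjusted p under 0.05, and at an unadjusted p under 0.05 the counts were 11 and 0. Of the 20 integrins 4 rose (Itga6, Itgav, Itga4 and Itgb3) and 6 fell (Itga3, Itga5, Itga9, Itgam, Itgb1 and Itgb7). The median log2 fold change of the 38 genes was 0.56, against 0.17 for all genes. In GSK3i/L at 8 days, 8 of the 38 rose against S/L and 5 fell, beside 16.8% and 14.4% of all tested genes. Here 7 matrix genes rose and 0 fell (11 and 0 at an unadjusted p under 0.05), 1 integrin rose (Itgav) and 5 fell (Itga3, Itga5, Itga2b, Itgb2 and Itgb5). The higher count was 5 without GSK3i/L replicate 1 or replicate 2, 4 without S/L replicate 1 and 13 without GSK3i/L replicate 3, and the lower count was 3 without S/L replicate 2. Both comparisons share the S/L libraries. In MEKi/L against S/L the long-minus-short scores did not overlap, so that medium and score cannot be told apart there. Col4a5 and Col4a6 entered the test only through GSK3i/L at 8 days and had to differ there. Itga1 entered only with the help of that group and Itgb2 only with that of MEKi/L. Counts over the tested genes thus describe these libraries and support nothing further.

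In 2i/L the shares of the genes called against S/L were near those of all genes, and Col4a1 and Col4a2, which rose in MEKi/L, fell. In 2i/L, 16 of the 38 rose against S/L and 10 fell, beside 39.1% and 24.4% of all tested genes. Of the matrix genes 11 rose and 3 fell, the 3 being Col4a1, Col4a2 and Lamb3. Of the integrins 5 rose (Itga6, Itgav, Itga4, Itgb3 and Itgb4) and 7 fell (Itga3, Itga5, Itga9, Itgae, Itga2b, Itgb2 and Itgb7). Against GSK3i/L at 8 days, 16 rose in 2i/L and 9 fell, beside 19.8% and 8.02% of all tested genes. With the libraries centred on the median of all genes that split was 12 and 13. Against MEKi/L, 6 rose in 2i/L and 7 fell, beside 6.81% and 6.11% of all tested genes. That higher count was 12 without MEKi/L replicate 1, 2 without MEKi/L replicate 2 or replicate 3 and 3 without any 1 of the 2i/L libraries, and the lower count was 4 without 2i/L replicate 2. MEKi/L against GSK3i/L at 8 days had 7 genes higher and 5 lower, beside 12.2% and 5.65% of all tested genes. It had 5 and 7 with the libraries centred on the median or quantile-normalized, and 12 higher without GSK3i/L replicate 1. In these 2 groups alone, every pair of libraries with the same replicate number correlated above 0.1 in its deviations from the group means. MEKi/L replicate 2, however, correlated more with GSK3i/L replicate 3 (r = 0.380) than with replicate 2 (r = 0.115), so that pairing by number is not established. With that number as a block over all 14 libraries in the limma fit, 9 genes were higher and 7 lower. Col4a2 (1.10, adjusted p = 0.030), Itga3 (0.80, adjusted p = 0.045) and Itga6 (0.79, adjusted p = 0.038) were then also higher in MEKi/L than in GSK3i/L, and Itga9 (-1.14, adjusted p = 0.029) and Itgb7 (-0.79, adjusted p = 0.036) lower. Lama5 (0.66, adjusted p = 0.062) no longer passed.

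At 24 days against 8 days of GSK3i/L, 16 of the 38 genes were lower and 0 higher by limma, beside 13.2% of all tested genes called lower and 4.30% called higher. The libraries of 24 days held plain values and those of 8 days the values matched by the authors, and their scores did not overlap. Time in culture, processing and score thus cannot be told apart here. At an unadjusted p under 0.05 the counts were 18 lower and 1 higher. Of the 16 calls, 2 were kept under every alternative that gave a value, and these, of Col4a5 and Col4a6, follow from the filter. Fewer genes were called lower with only the 2 groups compared. The genes called lower were 8 matrix genes and 8 integrins, and the median log2 fold change was -0.74, against -0.19 for all genes. This median was the same with the 2 genes at 0 reads at 24 days (Col4a6 and Itga1) set to their bounds. The lower count was 6 without GSK3i/L 24 day replicate 2, 4 without GSK3i/L 24 day replicate 3 and 5 without GSK3i/L 8 day replicate 1, and 1 gene was higher without GSK3i/L 8 day replicate 3.

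**Figure D1:**
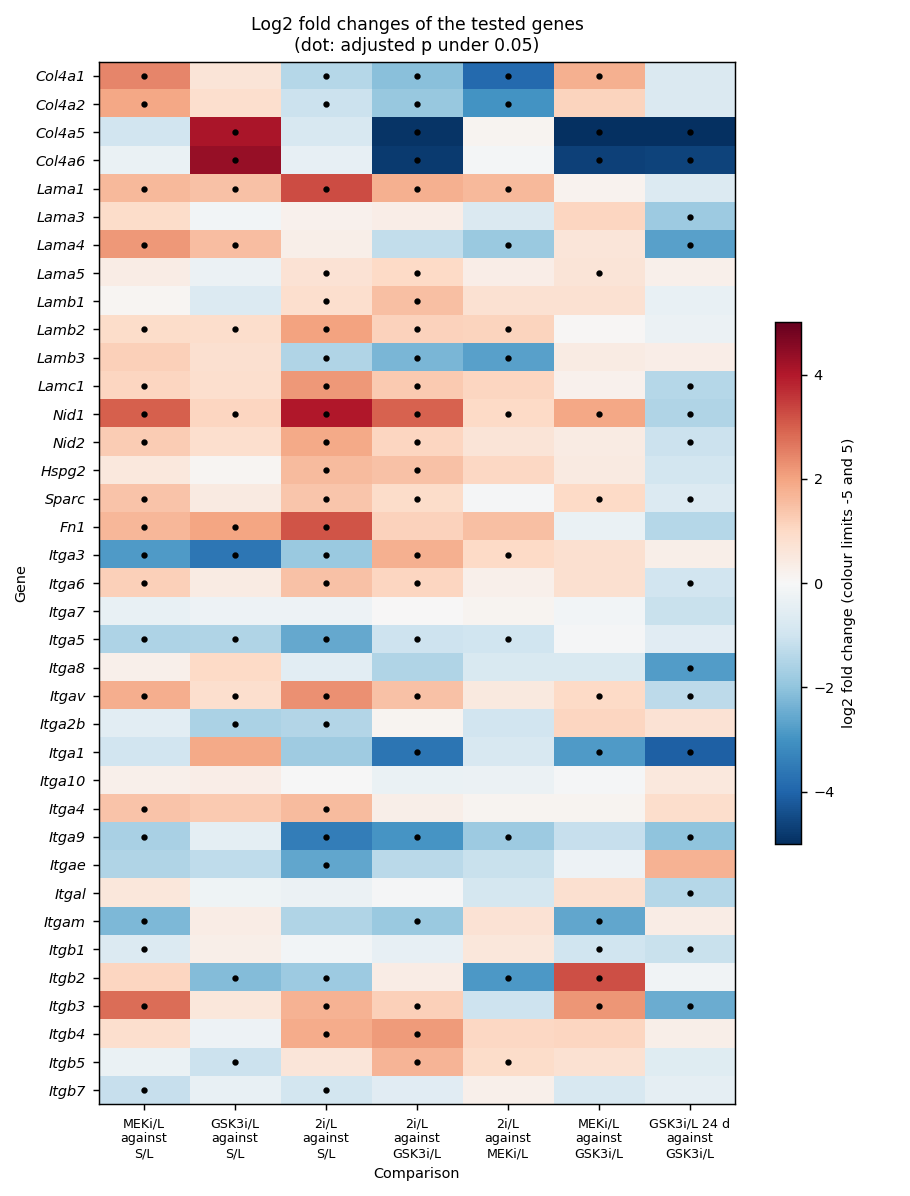
Log2 fold changes of 37 of the 38 tested genes (rows) in the 7 comparisons (columns), with red for higher and blue for lower in the first-named group and a dot where the adjusted p was under 0.05. Colours are limited at -5 and 5, and the column of GSK3i/L at 24 days against 8 days holds 16 dots, all on blue.

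Among the type IV collagen genes, Col4a1 and Col4a2, which encode the chains found in nearly all basement membranes, were highest in MEKi/L and lowest in 2i/L. Col4a1 stood at 7.70, 8.22 and 7.93 RPM in 2i/L, 196, 92.1 and 88.9 RPM in MEKi/L, 25.8 and 15.9 RPM after 24 days of GSK3i/L, 62.7, 29.03 and 21.2 RPM after 8 days of GSK3i/L and 18.7, 23.6 and 22.7 RPM in S/L. Every MEKi/L library lay above every other library, and every 2i/L library lay below them. Col4a1 averaged 7.95 ± 0.262 RPM in 2i/L, 126 ± 60.99 RPM in MEKi/L and 21.6 ± 2.63 RPM in S/L (SD, n = 3 each). Its log2 fold change by limma was 2.44 ± 0.36, adjusted p = 0.00014 for MEKi/L against S/L, where the value after ± is the standard error and the p-value is adjusted over all 14980 genes. It was -3.88 ± 0.36, adjusted p = 1.5e-05 for 2i/L against MEKi/L, -1.44 ± 0.36, adjusted p = 0.0034 for 2i/L against S/L and 1.79 for MEKi/L against GSK3i/L at 8 days. Col4a2 stood at 5.49, 5.93 and 5.42 RPM in 2i/L, 74.0, 34.5 and 34.8 RPM in MEKi/L, 14.6 and 10.7 RPM after 24 days of GSK3i/L, 38.6, 21.5 and 10.9 RPM after 8 days of GSK3i/L and 11.7, 11.4 and 12.1 RPM in S/L. Its mean was likewise highest in MEKi/L and lowest in 2i/L, although GSK3i/L replicate 1 at 8 days lay above MEKi/L replicates 2 and 3. Col4a2 had 1.93 ± 0.37, adjusted p = 0.0012 for MEKi/L against S/L and -2.99 ± 0.37, adjusted p = 0.00015 for 2i/L against MEKi/L. Its fall in 2i/L against S/L, -1.06, was lost without 2i/L replicate 1 or 3 or S/L replicate 1 or 3 (-1.06 to -1.04). In 2i/L both genes were also below GSK3i/L at 8 days, with log2 fold changes of -2.09 for Col4a1 and -1.89 for Col4a2. Neither passed the test between GSK3i/L at 8 days and S/L (0.65, adjusted p = 0.18, for Col4a1). The counting of strands is not given in the sources used here, so that reads in the 22 shared bases cannot be assigned to 1 gene with certainty.

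Col4a5 and Col4a6, whose chains form the collagen of specialised basement membranes, were detected at a level above a few reads only in GSK3i/L at 8 days. Col4a5 stood at 0.229, 0.0790 and 0.198 RPM in 2i/L, 0.190, 0.144 and 0.0948 RPM in MEKi/L, 0 and 0.0881 RPM after 24 days of GSK3i/L, 7.14, 3.64 and 3.75 RPM after 8 days of GSK3i/L and 0.154, 0.379 and 0.331 RPM in S/L. Outside GSK3i/L at 8 days it had at most about 5 reads in a library, against about 28 to 131 reads there. Col4a6 stood at 0, 0 and 0 RPM in 2i/L, 0.0635, 0 and 0 RPM in MEKi/L, 0 and 0 RPM after 24 days of GSK3i/L, 3.03, 2.21 and 0.876 RPM after 8 days of GSK3i/L and 0.0918, 0.0893 and 0 RPM in S/L. It had 0 reads in all libraries of 2i/L and of GSK3i/L at 24 days. Against a floor of 3 reads per library its level was at least 9.2-fold lower in 2i/L and at least 8.2-fold lower in GSK3i/L at 24 days than in GSK3i/L at 8 days. Both genes reached 0.5 RPM in the libraries of this group alone, so that their calls against it follow from the filter and no p is given. No fold is given against S/L or MEKi/L, where the reads were so few. The summed mesenchyme markers moved with this pair, with 162 to 341 RPM in GSK3i/L at 8 days and at most 52.3 RPM in any other library, and their part in the result was not tested. The other pair, Col4a3 and Col4a4 on chromosome 1, had 1 read in all for Col4a3 and 0 reads in all libraries for Col4a4.

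**Figure D2:**
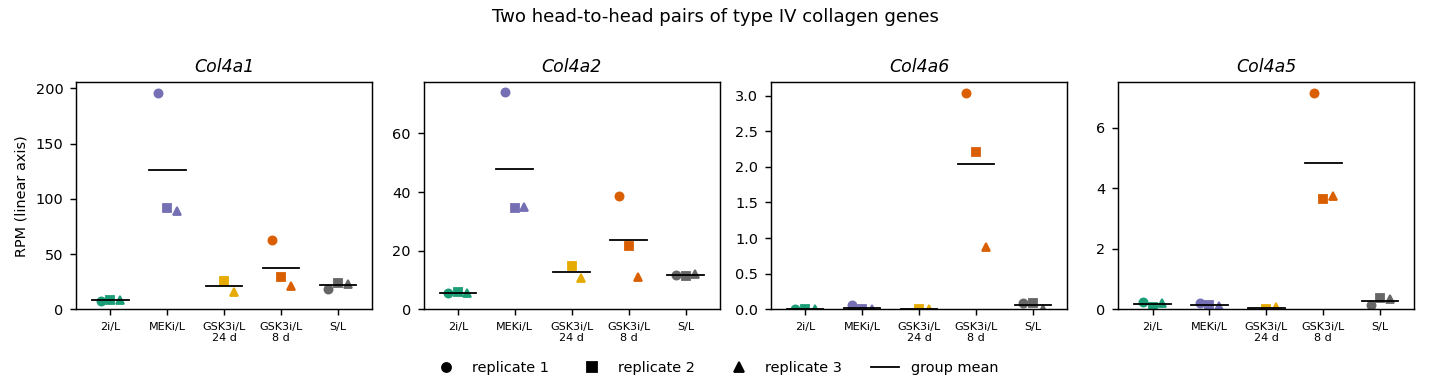
Level in RPM (linear axis) of the 4 detected type IV collagen genes in each library, by medium, with marker shape for the replicate and a line for the group mean. Col4a1 and Col4a2 peak in MEKi/L and are lowest in 2i/L, whereas Col4a6 and Col4a5 stand clear of 0 in GSK3i/L at 8 days alone, with 0.876 RPM in the lowest library for Col4a6.

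Of the laminin alpha chains, Lama1 rose in all 3 media at 8 days and Lama5 in 2i/L. Lama1, which pairs with Lamb1 and Lamc1 in the first laminin of the embryo, stood at 259, 288 and 335 RPM in 2i/L, 157, 72.5 and 77.5 RPM in MEKi/L, 45.7 and 62.8 RPM after 24 days of GSK3i/L, 162, 70.03 and 55.7 RPM after 8 days of GSK3i/L and 23.8, 34.7 and 35.4 RPM in S/L. No library of an inhibitor medium overlapped S/L, and every 2i/L library lay above the rest. The change against S/L was 3.24 ± 0.36, adjusted p = 6.3e-06 in 2i/L, 1.64 ± 0.36, adjusted p = 0.0029 in MEKi/L and 1.48 ± 0.36, adjusted p = 0.0081 after 8 days of GSK3i/L. The further rise in 2i/L was 1.77 against GSK3i/L and 1.61 against MEKi/L, the second of which was lost without MEKi/L replicate 2 or 3 (1.41 to 1.45). Lama5, an alpha chain of laminins that support cultured pluripotent cells, stood at 229, 258 and 241 RPM in 2i/L, 236, 154 and 197 RPM in MEKi/L, 109 and 189.8 RPM after 24 days of GSK3i/L, 144, 117 and 107 RPM after 8 days of GSK3i/L and 135, 166 and 144 RPM in S/L. MEKi/L overlapped both 2i/L and S/L. The rise in 2i/L was 0.72 against S/L and 0.99 against GSK3i/L, and the first was lost with the libraries centred on the median of all genes. The difference between MEKi/L and GSK3i/L, 0.66, was lost without MEKi/L replicate 1 or 3 or GSK3i/L replicate 2 or 3 (0.51 to 0.64).

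Of the beta chains, Lamb2 rose against S/L in every medium at 8 days, whereas Lamb1 passed the test only for 2i/L, against S/L and against GSK3i/L. Lamb2 stood at 57.1, 82.8 and 87.9 RPM in 2i/L, 46.5, 27.8 and 32.03 RPM in MEKi/L, 23.2 and 31.8 RPM after 24 days of GSK3i/L, 38.7, 36.2 and 26.8 RPM after 8 days of GSK3i/L and 16.5, 19.7 and 19.3 RPM in S/L. The S/L libraries were lowest and those of 2i/L highest, without overlap. Against S/L, Lamb2 changed by 2.02 ± 0.23, adjusted p = 7.9e-06 in 2i/L, 0.91 in MEKi/L and 0.86 after 8 days of GSK3i/L, the last lost without S/L replicate 1 (0.78). Lamb1 stood at 88.9, 107 and 128 RPM in 2i/L, 103, 50.9 and 49.2 RPM in MEKi/L, 28.3 and 29.5 RPM after 24 days of GSK3i/L, 62.5, 37.5 and 22.5 RPM after 8 days of GSK3i/L and 45.4, 68.1 and 70.3 RPM in S/L. MEKi/L replicate 1 lay inside the range of 2i/L and its partners inside that of S/L. The rise in 2i/L against S/L, 0.83, was lost when any 1 of the 6 libraries was left out (0.63 to 0.96) and was -0.57 with the long-minus-short score in the fit (adjusted p = 0.073), whereas that against GSK3i/L at 8 days was 1.51 ± 0.34, adjusted p = 0.0055. Lamc1, the gamma chain of most laminins, stood at 603, 631 and 642 RPM in 2i/L, 494, 202 and 253 RPM in MEKi/L, 80.1 and 112 RPM after 24 days of GSK3i/L, 465, 226 and 154 RPM after 8 days of GSK3i/L and 106, 158 and 162 RPM in S/L. MEKi/L lay between 2i/L and S/L without overlap, and GSK3i/L replicate 3 at 8 days lay among the S/L libraries. The rise in 2i/L against S/L was 2.16 ± 0.37, adjusted p = 0.00024. In MEKi/L against S/L it was 1.07 and was lost without MEKi/L replicate 1 or S/L replicate 1 or 2 (0.70 to 1.16). In 2i/L against GSK3i/L it was 1.31 and was lost without 2i/L replicate 2 or 3 or GSK3i/L replicate 2 or 3 (0.95 to 1.30). The fall at 24 days of GSK3i/L, -1.41, was lost without either 24 day library or without 8 day replicate 1 or 2 (-1.66 to -0.97).

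Of the laminin chains below 10 RPM, Lamb3, a beta chain of epithelia, fell in 2i/L, with log2 fold changes of -2.30 against GSK3i/L at 8 days and -2.70 against MEKi/L. The highest group mean of Lamb3 was 2.03 RPM, in MEKi/L, and it had 4, 2 and 9 reads in the 2i/L libraries. Its fall against S/L, -1.50, was lost without 2i/L replicate 2 or S/L replicate 3 (-1.28 to -1.03). Lama3 was highest in MEKi/L too, at 3.78 RPM, and passed the test only at 24 days against 8 days of GSK3i/L, -1.82. That call was lost without GSK3i/L 24 day replicate 3 or 8 day replicate 1 (-1.63 to -0.99), and the value was -2.65 without 24 day replicate 2. Lama4, an alpha chain of vessels and mesenchyme, reached 2.84 RPM in MEKi/L and had 3 and 4 reads in the 24 day libraries of GSK3i/L. It rose against S/L in MEKi/L (2.15 ± 0.45, adjusted p = 0.0019) and in GSK3i/L at 8 days (1.53), the second of these lost without GSK3i/L replicate 1 or 2 or S/L replicate 1 (1.33 to 1.44). It fell in 2i/L against MEKi/L (-1.85, lost without 2i/L replicate 2 at -1.36) and at 24 days of GSK3i/L (-2.70, lost without 24 day replicate 2 at -2.38). The mesenchyme markers were also lower at 24 than at 8 days, at 8.96 and 10.5 RPM at 24 days against 162 to 341 RPM at 8 days, and their part in this was not tested.

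**Figure D3:**
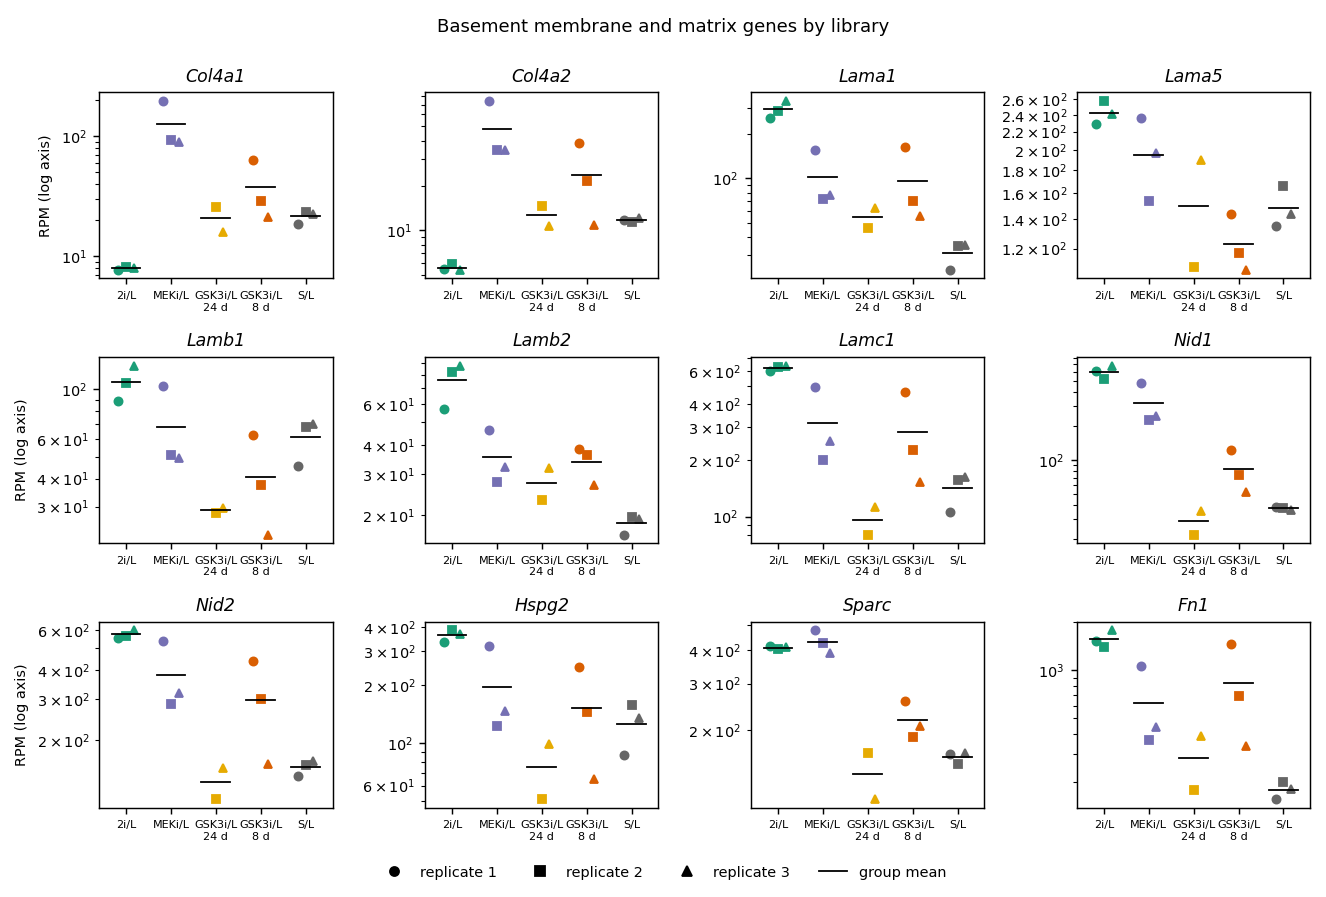
Level in RPM (log axis) of 12 matrix genes that reached 10 RPM, in each library, by medium, with marker shape for the replicate and a line for the group mean. Col4a1 and Col4a2 are lowest in 2i/L while Lama1, Lamb2 and Nid1 are highest there, and replicate 1 of MEKi/L and of GSK3i/L at 8 days lies above its partners in most panels.

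Nid1, which encodes the nidogen that links laminin to type IV collagen, had the highest fold change of the named genes in 2i/L. It stood at 609.8, 521 and 684 RPM in 2i/L, 478, 228 and 246 RPM in MEKi/L, 22.03 and 35.7 RPM after 24 days of GSK3i/L, 124, 74.4 and 52.6 RPM after 8 days of GSK3i/L and 38.7, 37.9 and 36.2 RPM in S/L. All libraries of 2i/L and MEKi/L lay above all others, and GSK3i/L at 24 days lay below S/L. Nid1 averaged 605 ± 81.4 RPM in 2i/L, 317 ± 139 RPM in MEKi/L and 37.6 ± 1.31 RPM in S/L (SD, n = 3 each). The log2 fold change against S/L was 4.00 ± 0.31, adjusted p = 3.2e-07 in 2i/L and 2.99 ± 0.31, adjusted p = 8.8e-06 in MEKi/L. After 8 days of GSK3i/L it was 1.06 and was lost without GSK3i/L replicate 1 or 2 or any 1 of the S/L libraries (0.73 to 1.10). MEKi/L exceeded GSK3i/L at 8 days by 1.93 ± 0.31, adjusted p = 0.00058. The difference of 2i/L from MEKi/L, 1.01, was lost without any 1 of the 2i/L libraries or MEKi/L replicate 2 or 3 (0.81 to 1.11). The fall at 24 days of GSK3i/L, -1.49, was lost without 24 day replicate 2 or 8 day replicate 1 (-1.16 to -1.14).

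Nid2, the second nidogen, stood at 554, 566 and 598 RPM in 2i/L, 538, 287 and 318 RPM in MEKi/L, 111 and 152 RPM after 24 days of GSK3i/L, 438, 301 and 157 RPM after 8 days of GSK3i/L and 139, 156 and 162 RPM in S/L. GSK3i/L replicate 3 at 8 days lay among the S/L libraries. Nid2 rose against S/L in 2i/L (1.91 ± 0.31, adjusted p = 0.00017) and MEKi/L (1.27). Its rise against GSK3i/L in 2i/L, 1.06, was lost without any 1 of the 2i/L libraries or GSK3i/L replicate 3 (0.66 to 1.08). The fall at 24 days, -1.09, was lost without either 24 day library or without 8 day replicate 1 or 2 (-1.31 to -0.75). Perlecan, the heparan sulfate proteoglycan of basement membranes, is encoded by Hspg2 and stood at 334, 386 and 369.8 RPM in 2i/L, 318, 123 and 146 RPM in MEKi/L, 51.04 and 98.6 RPM after 24 days of GSK3i/L, 248, 145 and 64.8 RPM after 8 days of GSK3i/L and 86.9, 157 and 135 RPM in S/L. The 2i/L libraries lay above all others, and MEKi/L replicate 1 lay apart from its partners, which overlapped S/L. Hspg2 rose in 2i/L by 1.56 against S/L, but with the long-minus-short score in the fit the value was -0.28 and did not pass (adjusted p = 0.45). Against GSK3i/L the rise was 1.45 and was lost without any 1 of the 2i/L libraries or GSK3i/L replicate 2 or 3 (0.94 to 1.52).

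Sparc, a collagen-binding matrix protein abundant in parietal endoderm, stood at 414, 403 and 411 RPM in 2i/L, 477, 427 and 389.9 RPM in MEKi/L, 165 and 110.3 RPM after 24 days of GSK3i/L, 258, 189 and 208 RPM after 8 days of GSK3i/L and 163, 149 and 164 RPM in S/L. Libraries of 2i/L and MEKi/L overlapped each other and lay above the rest. The rise against S/L was 1.37 ± 0.18, adjusted p = 2.7e-05 in 2i/L and 1.44 ± 0.18, adjusted p = 3.6e-05 in MEKi/L. Against GSK3i/L at 8 days it was 0.92 in 2i/L and 0.99 in MEKi/L. The fall at 24 days, -0.68, was lost without GSK3i/L 24 day replicate 3 or 8 day replicate 1 (-0.55 to -0.39). Fn1 encodes fibronectin, a ligand of integrin alpha 5 beta 1, and stood at 1517, 1402 and 1785 RPM in 2i/L, 1066, 368 and 439 RPM in MEKi/L, 178 and 387 RPM after 24 days of GSK3i/L, 1471, 693 and 336 RPM after 8 days of GSK3i/L and 155, 199 and 179.7 RPM in S/L. Every inhibitor library at 8 days lay above every S/L library, and the 3 libraries of GSK3i/L at 8 days spanned from 336 to 1471 RPM. Within MEKi/L and GSK3i/L at 8 days the library with the highest long-minus-short score also had the highest Fn1. Fn1 rose against S/L by 3.14 ± 0.48, adjusted p = 8.8e-05 in 2i/L and 1.98 ± 0.48, adjusted p = 0.0073 after 8 days of GSK3i/L. In MEKi/L it was 1.65 and was lost without MEKi/L replicate 1 (1.18).

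Among the integrins that bind laminin, Itga3 fell in every inhibitor medium and Itga6 rose in those with the MEK inhibitor. Itga3 stood at 21.5, 17.4 and 15.9 RPM in 2i/L, 12.2, 8.92 and 7.11 RPM in MEKi/L, 6.46 and 6.52 RPM after 24 days of GSK3i/L, 8.02, 5.54 and 3.29 RPM after 8 days of GSK3i/L and 70.3, 49.01 and 78.8 RPM in S/L. The lowest S/L library was above the highest library of any other group. It averaged 18.3 ± 2.88 RPM in 2i/L, 9.43 ± 2.61 RPM in MEKi/L, 5.62 ± 2.37 RPM after 8 days of GSK3i/L and 66.1 ± 15.4 RPM in S/L (SD, n = 3 each). The fall against S/L was -1.84 ± 0.30, adjusted p = 0.00016 in 2i/L, -2.82 ± 0.30, adjusted p = 9.8e-06 in MEKi/L and -3.62 ± 0.30, adjusted p = 2.9e-06 after 8 days of GSK3i/L. In 2i/L it stood above GSK3i/L at 8 days by 1.78 ± 0.30, adjusted p = 0.00073. Its difference from MEKi/L, 0.98, was lost without any 1 of the 2i/L libraries or MEKi/L replicate 2 or 3 (0.79 to 1.07). Itga6, whose product pairs with beta 1 or beta 4, stood at 180.0, 195 and 179 RPM in 2i/L, 214, 138 and 123 RPM in MEKi/L, 41.8 and 49.2 RPM after 24 days of GSK3i/L, 141, 82.3 and 59.9 RPM after 8 days of GSK3i/L and 65.3, 68.5 and 68.5 RPM in S/L. MEKi/L replicate 1 lay above the 2i/L libraries, and every library of both media lay above S/L. Itga6 rose against S/L by 1.45 ± 0.26, adjusted p = 0.00037 in 2i/L and 1.19 ± 0.26, adjusted p = 0.0031 in MEKi/L. In 2i/L it was also above GSK3i/L at 8 days (1.06). The fall at 24 days, -0.97, was lost without either 24 day library or without 8 day replicate 1 or 2 (-1.09 to -0.63). The third laminin-binding alpha subunit, Itga7, had at most 2.13 RPM in a group mean (S/L) and passed the test in none of the 7 comparisons.

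Of the alpha subunits of the fibronectin and vitronectin receptors, which recognise a short peptide in their ligands, Itga5 fell against S/L and Itgav rose. Itga5, the alpha subunit of the main fibronectin receptor, stood at 8.002, 9.17 and 7.87 RPM in 2i/L, 24.8, 16.4 and 11.4 RPM in MEKi/L, 10.3 and 13.4 RPM after 24 days of GSK3i/L, 23.7, 17.4 and 12.5 RPM after 8 days of GSK3i/L and 52.96, 45.3 and 49.6 RPM in S/L. The S/L libraries lay apart above all others and those of 2i/L below all others. Itga5 differed from S/L by -2.56 ± 0.27, adjusted p = 4e-06 in 2i/L, -1.56 ± 0.27, adjusted p = 0.0005 in MEKi/L and -1.51 ± 0.27, adjusted p = 0.0011 after 8 days of GSK3i/L. It was lower in 2i/L than in GSK3i/L at 8 days (-1.05). The difference of 2i/L from MEKi/L, -1.0, was lost without any 1 of the 2i/L libraries or MEKi/L replicate 1 or 2 (-1.07 to -0.71). Fn1, the ligand, rose in the same 3 media in which Itga5 fell. Itgav, the alpha subunit of vitronectin receptors, stood at 66.5, 56.4 and 62.9 RPM in 2i/L, 68.6, 32.8 and 38.9 RPM in MEKi/L, 9.42 and 8.54 RPM after 24 days of GSK3i/L, 37.2, 20.6 and 14.9 RPM after 8 days of GSK3i/L and 11.6, 14.1 and 12.2 RPM in S/L. All 2i/L and MEKi/L libraries lay above all S/L libraries, and those of GSK3i/L at 24 days lay below them. It rose against S/L by 2.30 ± 0.30, adjusted p = 2.6e-05 in 2i/L and 1.82 ± 0.30, adjusted p = 0.00036 in MEKi/L, and 2i/L lay above GSK3i/L at 8 days by 1.46. In GSK3i/L at 8 days the value against S/L was 0.84 and was lost without GSK3i/L replicate 1 or 2 or any 1 of the S/L libraries (0.48 to 0.92). MEKi/L exceeded GSK3i/L by 0.98, lost without MEKi/L replicate 1 or 3 or GSK3i/L replicate 2 or 3 (0.67 to 1.08). The fall at 24 days, -1.33, was lost without either 24 day library or without 8 day replicate 1 (-1.40 to -0.97).

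Of the beta subunits that pair with Itgav, Itgb3 rose against S/L in MEKi/L and 2i/L, and Itgb5 fell in GSK3i/L. Itgb3 had its highest group mean, 8.17 RPM, in MEKi/L and rose there against S/L (2.78 ± 0.39, adjusted p = 8.5e-05) and against GSK3i/L at 8 days (2.22 ± 0.39, adjusted p = 0.00099). It rose in 2i/L against S/L (1.75). In 2i/L against GSK3i/L the value was 1.19 and was lost without any 1 of the 2i/L libraries or GSK3i/L replicate 2 or 3 (1.11 to 1.24). The 24 day libraries of GSK3i/L held 7 and 2 reads of Itgb3. At 24 days of GSK3i/L it fell (-2.48), with -1.68 and no call without 24 day replicate 3 and -3.27 without 24 day replicate 2. Itgb5 stood at 32.4, 38.6 and 39.3 RPM in 2i/L, 25.3, 20.5 and 13.6 RPM in MEKi/L, 6.91 and 8.19 RPM after 24 days of GSK3i/L, 14.4, 12.98 and 7.76 RPM after 8 days of GSK3i/L and 20.4, 25.8 and 26.7 RPM in S/L. The 2i/L libraries were highest, and the libraries of GSK3i/L at both times lay below those of S/L. It fell in GSK3i/L at 8 days against S/L (-1.09 ± 0.26, adjusted p = 0.0066), and 2i/L was above GSK3i/L (1.70 ± 0.26, adjusted p = 0.00032). The value of 2i/L against MEKi/L, 0.93, was lost without any 1 of the 2i/L libraries or MEKi/L replicate 2 or 3 (0.68 to 1.02). Itga2b, the alpha subunit that pairs with beta 3 on platelets, was highest in S/L at 2.90 RPM. Against S/L it fell in 2i/L (-1.45) and after 8 days of GSK3i/L (-1.58). The first was lost without 2i/L replicate 1 or 2 (-1.22 to -1.09) and was -2.04 without 2i/L replicate 3, and the second was lost without GSK3i/L replicate 1 or S/L replicate 2 (-1.42 to -1.31). Itga8, a receptor of nephronectin in kidney, was highest in GSK3i/L at 8 days at 1.49 RPM and had 6 and 1 reads in the 24 day libraries. It fell by 24 days (-2.79), which was lost without 24 day replicate 3 or 8 day replicate 1 (-2.43 to -1.60) and was -3.97 without 24 day replicate 2.

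**Figure D4:**
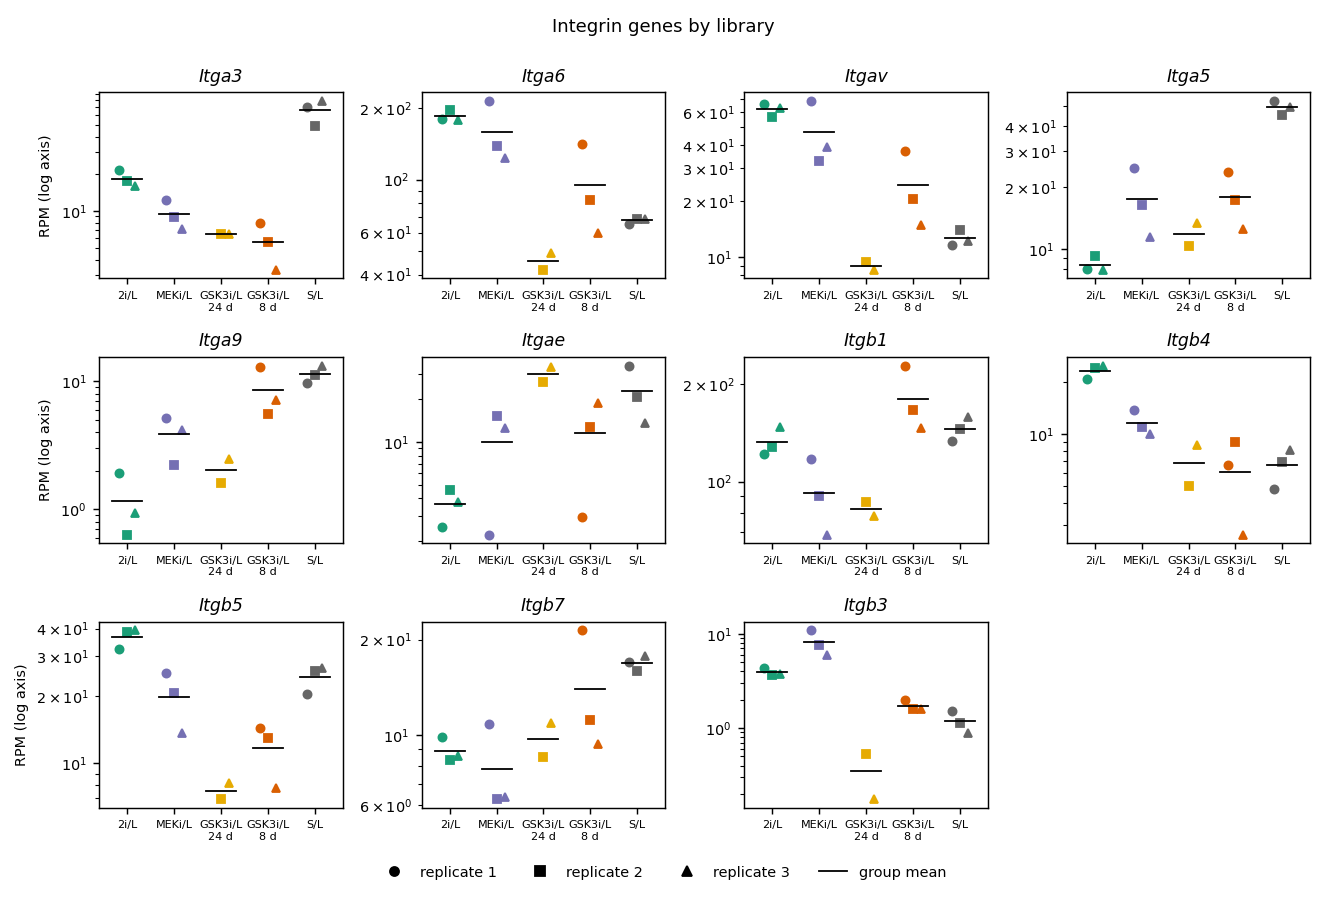
Level in RPM (log axis) of 11 integrin genes in each library, by medium, with marker shape for the replicate and a line for the group mean. Itga3 and Itga5 are highest in S/L, Itgav and Itga6 in 2i/L and MEKi/L, and Itgb3 in MEKi/L.

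Itgb1, the beta subunit shared by most matrix-binding integrins, stood at 121, 128 and 147 RPM in 2i/L, 117, 90.2 and 68.6 RPM in MEKi/L, 86.3 and 78.4 RPM after 24 days of GSK3i/L, 228, 166 and 146 RPM after 8 days of GSK3i/L and 133, 145 and 158 RPM in S/L. The libraries of 2i/L and S/L overlapped, at 132 ± 13.4 RPM in 2i/L and 145 ± 12.2 RPM in S/L (SD, n = 3 each). Its log2 fold change between them did not pass the test (-0.14, adjusted p = 0.57) and was -0.77 with the long-minus-short score in the fit. It fell in MEKi/L against S/L (-0.69, lost without MEKi/L replicate 3 or S/L replicate 3, at -0.63 to -0.50) and against GSK3i/L at 8 days (-0.98 ± 0.21, adjusted p = 0.0041). At 24 days against 8 days of GSK3i/L it fell (-1.11), a call lost without either 24 day library (-1.17 to -1.04). Itgb4, the partner of Itga6 in hemidesmosomes, stood at 20.9, 24.3 and 25.1 RPM in 2i/L, 13.8, 11.01 and 10.05 RPM in MEKi/L, 5.01 and 8.72 RPM after 24 days of GSK3i/L, 6.61, 9.04 and 2.63 RPM after 8 days of GSK3i/L and 4.85, 6.95 and 8.16 RPM in S/L. The 2i/L libraries lay above all others. It rose in 2i/L against S/L (1.84 ± 0.37, adjusted p = 0.00079) and against GSK3i/L at 8 days (2.11 ± 0.37, adjusted p = 0.001). Itgb7 pairs with Itga4 and Itgae in lymphocytes and stood at 9.83, 8.30 and 8.60 RPM in 2i/L, 10.8, 6.26 and 6.35 RPM in MEKi/L, 8.51 and 10.9 RPM after 24 days of GSK3i/L, 21.4, 11.1 and 9.33 RPM after 8 days of GSK3i/L and 17.0, 15.9 and 17.8 RPM in S/L. S/L overlapped GSK3i/L at 8 days only. Itgb7 fell in 2i/L (-0.93) and in MEKi/L (-1.16 ± 0.29, adjusted p = 0.006) against S/L.

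Itga9, a tenascin receptor that pairs with beta 1, fell against S/L in 2i/L and MEKi/L. It stood at 1.91, 0.632 and 0.926 RPM in 2i/L, 5.20, 2.23 and 4.17 RPM in MEKi/L, 1.60 and 2.47 RPM after 24 days of GSK3i/L, 12.9, 5.60 and 7.16 RPM after 8 days of GSK3i/L and 9.73, 11.2 and 13.3 RPM in S/L. All 2i/L and MEKi/L libraries lay below all S/L libraries, and GSK3i/L at 8 days overlapped S/L. The change was -3.45 ± 0.43, adjusted p = 1.7e-05 in 2i/L against S/L, -1.64 in MEKi/L against S/L and -2.95 ± 0.43, adjusted p = 0.00023 in 2i/L against GSK3i/L at 8 days. The value of 2i/L against MEKi/L, -1.81, was lost without 2i/L replicate 2 or 3 or MEKi/L replicate 3 (-1.73 to -1.46). At 24 days of GSK3i/L it was -2.02 against 8 days, lost without either 24 day library or without 8 day replicate 1 (-2.33 to -1.67). Itgae, whose product binds E-cadherin, stood at 2.51, 4.58 and 3.77 RPM in 2i/L, 2.22, 15.3 and 12.5 RPM in MEKi/L, 26.2 and 33.5 RPM after 24 days of GSK3i/L, 2.97, 12.7 and 18.9 RPM after 8 days of GSK3i/L and 34.5, 20.8 and 13.6 RPM in S/L. Within MEKi/L and within GSK3i/L at 8 days its lowest library was replicate 1, the one with the highest long-minus-short score. It fell in 2i/L against S/L (-2.60 ± 0.70, adjusted p = 0.0054) and passed no other comparison, and with the score in the fit the value was 0.33 and did not pass (adjusted p = 0.63).

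Itga4, which binds fibronectin and VCAM1, reached 2.63 RPM at 24 days of GSK3i/L. It rose against S/L in 2i/L (1.58, lost without 2i/L replicate 3 or S/L replicate 3 at 1.18 to 1.22) and in MEKi/L (1.44, lost without MEKi/L replicate 3 or S/L replicate 3 at 1.02 to 1.08). Of the collagen receptors, Itga1 was highest in GSK3i/L at 8 days at 1.43 RPM. It passed the test as lower in 2i/L, which had 3 reads in all, and in MEKi/L, which had 8, against 59 reads in that group. Itga1 reached 0.5 RPM in 3 libraries of that group and 2 of S/L alone. It entered the test only with the help of GSK3i/L at 8 days, and its calls against that group follow in part from the filter. The call for MEKi/L was lost without MEKi/L replicate 1 or 3 or GSK3i/L replicate 1. At 24 days of GSK3i/L it had 0 reads, at least 5.8-fold lower than at 8 days, and the call was lost without either 24 day library or without 8 day replicate 1. With so few reads no fold change is given for 2i/L or MEKi/L. Itga10 had at most 1.89 RPM in a group mean (GSK3i/L at 24 days) and passed no comparison.

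Itgb2 and the leukocyte alpha subunits that pair with it were at low levels, with no group mean above that of Itgal in MEKi/L. Itgb2, their common beta subunit, was highest in MEKi/L at 1.24 RPM. The MEKi/L libraries held 49 reads in all, against 8 in 2i/L, 4 after 8 days of GSK3i/L and 22 in S/L. Itgb2 reached 0.5 RPM in 3 MEKi/L and 2 S/L libraries alone, so that it entered the test only with the help of MEKi/L. Its calls against MEKi/L follow in part from that filter, and no p is given for them. Its log2 fold change was -2.86 for 2i/L against MEKi/L and 3.24 for MEKi/L against GSK3i/L at 8 days. Its falls against S/L were -1.81 in 2i/L, lost without 2i/L replicate 1 or S/L replicate 2 or 3 (-1.67 to -1.24), and -2.19 in GSK3i/L at 8 days, lost without S/L replicate 2 or 3 (-2.05 to -1.93). At these counts the size of a fold change depends on the value set for 0 reads. Itgam was highest at 24 days of GSK3i/L at 1.15 RPM and fell in MEKi/L against GSK3i/L at 8 days (-2.60), a value that ran from -3.29 to -1.92 without MEKi/L replicate 1 or 3. It had 6 reads in all in MEKi/L and 11 in 2i/L, against about 28 after 8 days of GSK3i/L and 24 in S/L. Its fold changes in MEKi/L depend likewise on the value set for 0 reads. Its fall in MEKi/L against S/L, -2.23, was lost without MEKi/L replicate 1 (-1.55) and was -2.92 without MEKi/L replicate 3. In 2i/L against GSK3i/L it was -1.86, lost without 2i/L replicate 1 or 2 or GSK3i/L replicate 2 or 3 (-1.82 to -1.55). Itgal was highest in MEKi/L at 3.51 RPM and fell at 24 days against 8 days of GSK3i/L (-1.43), a call lost without any 1 of the 5 libraries (-1.93 to -0.93).

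The remaining 10 genes did not enter the test. Itga2, Itgax, Itgb6 and Col4a4 had 0 reads in all 14 libraries, where a count of 0 allows up to 0.221 RPM in 2i/L and up to 0.329 RPM in S/L on average (3 reads per library, counting error only). Col4a3, Lama2, Itgad and Itga11 had at most about 4 reads in any library. Lamc3 had 4, 3 and 4 reads in the MEKi/L libraries, 1 read in 1 of the 2i/L libraries and 0 in the others. Itgb8, a partner of Itgav, had 0.990, 0.379 and 1.19 RPM in S/L and at most 1 read in any library of the inhibitor media. Against the floor of 3 reads per library it was at least 3.8-fold lower in 2i/L and at least 3.3-fold lower in GSK3i/L at 8 days than in S/L.

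Genes that act around the integrins and the basement membrane were taken from 4 lists, none tested as a set. Of all tested genes, 39.1% were called higher and 24.4% lower in 2i/L against S/L, 26.1% and 14.7% in MEKi/L, and 16.8% and 14.4% in GSK3i/L at 8 days. Of 25 genes of integrin adaptors and adhesion, kinases such as Src among them, 14 rose in 2i/L against S/L, 5 fell and 6 did not pass. Their median log2 fold change was 0.84, against 0.28 for all genes. Tns1, a tensin, averaged 56.6 ± 5.25 RPM in 2i/L and 3.05 ± 0.554 RPM in S/L, and Zyx (zyxin) 3.78 ± 0.135 RPM in 2i/L and 29.5 ± 7.10 RPM in S/L (SD, n = 3 each), with log2 fold changes of 4.23 for Tns1 and -2.94 for Zyx. In MEKi/L against S/L 11 of the 25 rose and 5 fell, and in GSK3i/L at 8 days 6 rose and 3 fell. Of the 25, 1 entered the test only with the help of MEKi/L and 1 only with that of S/L. Of 23 tested basement membrane proteins and matrix receptors outside the 48, 10 rose in 2i/L against S/L and 3 fell, 10 rose in MEKi/L and 5 fell, and 7 rose in GSK3i/L at 8 days and 2 fell, the share higher in 2i/L being near that of all genes. Of the 23, 1 entered the test only with the help of 2i/L, 2 with that of MEKi/L and 2 with that of GSK3i/L at 8 days. The counts higher in these media follow in part from the filter. The collagen receptor Ddr2 averaged 18.7 ± 4.18 RPM in 2i/L, 45.2 ± 12.8 RPM in MEKi/L and 1.70 ± 0.463 RPM in S/L. Pxdn, the peroxidase that crosslinks type IV collagen, averaged 1.32 ± 0.710 RPM in 2i/L, 3.098 ± 1.70 RPM in MEKi/L and 15.02 ± 3.75 RPM in S/L.

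Of the 12 tested genes that fold, modify or crosslink collagen, 3 rose in 2i/L against S/L and 4 fell, beside 39.1% and 24.4% of all tested genes, with a median of -0.18 against 0.28 for all genes. Creb3l2, a transcription factor of the secretory pathway, averaged 46.9 ± 3.24 RPM in 2i/L and 3.09 ± 0.906 RPM in S/L. Serpinh1, the collagen chaperone, averaged 26.3 ± 7.38 RPM in 2i/L, 27.3 ± 7.08 RPM in MEKi/L and 77.1 ± 16.4 RPM after 8 days of GSK3i/L, and fell in both media against that group. Loxl2, a collagen crosslinking oxidase, averaged 1.80 ± 0.188 RPM at 24 days of GSK3i/L (SD, n = 2) and 13.03 ± 4.86 RPM at 8 days (SD, n = 3). Of 15 matrix proteases and inhibitors, 3 rose in 2i/L against S/L and 7 fell, with a median of -0.61 against the same 0.28. Of the 15, 2 entered the test only with the help of S/L. Timp1, a metalloproteinase inhibitor, averaged 44.1 ± 1.61 RPM in 2i/L and 15.5 ± 1.53 RPM in S/L, and the gelatinase Mmp2 averaged 2.88 ± 1.28 RPM in 2i/L and 10.7 ± 4.65 RPM in S/L. At 24 days against 8 days of GSK3i/L, 8 of the adaptor and adhesion genes and 4 of the basement membrane proteins and receptors fell. So did 3 of the collagen-processing genes and 6 of the proteases and inhibitors, beside 13.2% of all tested genes called lower.

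The fold changes of 2i/L against S/L were recomputed with the score added to the fit, since the score differed between these groups. What the score measures was not tested, so the values are not offered as a correction for transcript length. The calls numbered 10 higher and 8 lower of the 38 genes, against 16 and 10 without the score. The 8 lower include a gene that had no call without the score. Itgb1, with no call without the score (-0.14), stood at -0.77 with it. Among the genes with the same direction and call were Nid1 (2.73), Lama1 (1.71), Fn1 (1.11), Col4a1 (-2.83), Col4a2 (-2.54), Itga3 (-2.79), Itga5 (-3.49) and Itga9 (-4.52). Calls were lost for Lama5 (0.13), Itga6 (0.39), Itgb3 (1.46), Itgb4 (0.91), Lamb3 (-1.73) and Itga2b (-0.77). The value changed sign and lost its call for Hspg2 (-0.28), Lamb1 (-0.57) and Itgae (0.33). In other comparisons the score removed the calls of Lamc1 (0.23) and Itgam (-1.39) in MEKi/L against S/L, of Itgav (0.31), Lama4 (1.17) and Itga2b (-1.28) in GSK3i/L at 8 days against S/L, of Hspg2 (0.40), Nid2 (0.34), Itgam (-0.97) and Itgb3 (1.02) in 2i/L against GSK3i/L, and of Itga3 (0.53), Nid1 (0.41) and Itgb5 (0.57) in 2i/L against MEKi/L. At 24 days against 8 days of GSK3i/L, 6 genes were lower with the score, against 16 without. Leaving out replicate 1 of MEKi/L and of GSK3i/L, 14 genes rose and 6 fell in MEKi/L against S/L, and 15 rose and 8 fell in 2i/L against MEKi/L.

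**Figure D5:**
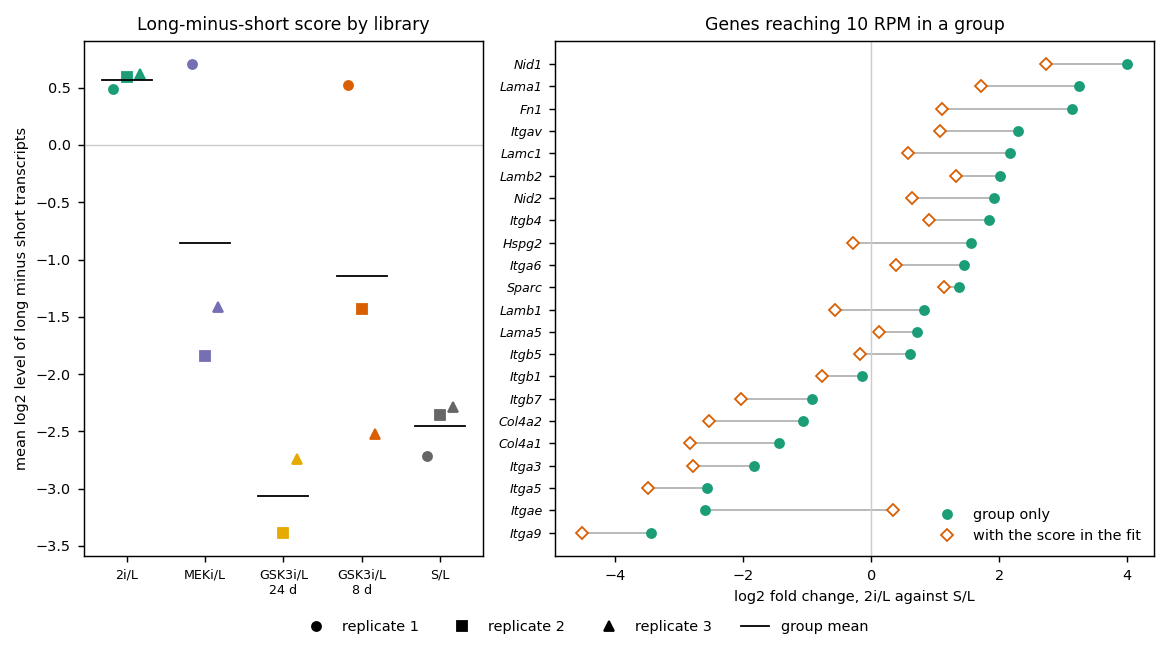
Left, the long-minus-short score (difference of mean log2 levels) of each library by medium, with marker shape for the replicate and a line for the group mean. Right, the log2 fold change of 2i/L against S/L for 22 genes that reached 10 RPM, with group only (filled circles) and with the score in the fit (open diamonds), where Itgae, Hspg2 and Lamb1 cross 0 with their calls lost, Itgb5, which had no call, crosses 0 too, and Nid1 stays at 2.73.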

How the data were processed

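RNA levels were taken from the authors' deposited table of log2 RPM (reads of a gene per 1000000 reads) for 14 libraries, named as SeqMonk output in its title. HISAT2, Trim Galore 0.6.5, Bismark 0.22.3 (an aligner of bisulfite reads) and the GRCm38 build are listed, per the submitters' processing notes. How reads were counted, and whether by strand, is not given in the sources used here. In the 8 libraries of 2i/L, MEKi/L and GSK3i/L at 24 days, values below 1000 reads were whole multiples of 1 read (within 0.02 of a read) in 100% of cases, with 0 reads set at 0.9 of a read. The 6 libraries of GSK3i/L at 8 days and S/L share 1 distribution, with sorted values above 2 RPM at most 0.0793 apart, so their depths and read numbers are approximate, and such scaling could change their fold changes. A floor of 3 reads covers counting error only.

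Log2 values, not counts, were tested, with limma 3.58.1 in R 4.3.3 (variance trend, robust), over all 14 libraries and 5 groups, for 14980 genes with at least 0.5 RPM in 3 libraries. A gene was called at a Benjamini-Hochberg adjusted p under 0.05. Alternatives were 2 other scalings, other filters, a pseudocount of 0.5 RPM, only the groups compared, the replicate number as a block, the long-minus-short score, and leaving out libraries. Deviations from the group means correlated above 0.1 for all 3 same-number pairs of MEKi/L with GSK3i/L at 8 days (r = 0.115 to 0.669) but not for every pair in any other comparison, so the block is given beside that comparison.

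Genes reaching 10 RPM in a group are given in every library, those from 1 to 10 RPM by their highest mean and calls, and the rest by reads. Genes outside the 48 are at most 4 a list, comparison and call, taken by size of change among those at 10 RPM. The 48 genes and all lists were chosen with earlier results of these data known. Levels are not set against each other between genes, since no transcript lengths were used. The values of 1 of the 48 genes are not reported here, though counts over the tested genes include it.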

Additional observations from a re-analysis of the deposited data

How the results depend on the processing

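Of the 125 calls, 115 had a value under every alternative, and 66 of these kept direction and significance throughout. The other 10, of Col4a6, Itga1 and Itgam, had none under the filter at 1 RPM, and 5 of them kept both under the rest. Calls lost numbered 31 with the long-minus-short score in the fit, 19 with only the 2 groups compared, 15 with median centring, 13 with quantile normalization, 10 with no filter, 9 without MEKi/L replicate 1 and GSK3i/L replicate 1, 7 with the replicate block and 2 each with a filter at 1 RPM and a pseudocount of 0.5. Signs changed only with the score, in 2i/L against S/L, for Hspg2 (-0.28), Itgae (0.33) and Lamb1 (-0.57), and the cause was not tested. Median centring ended the calls of Lamc1 (0.89) in MEKi/L against S/L, and of Hspg2 (1.15) and Nid2 (0.75) in 2i/L against GSK3i/L.

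Counts that moved by over 1.5 times were, with the score, 8 lower in GSK3i/L against S/L, 10 higher in 2i/L against S/L, 13 higher and 8 lower in MEKi/L against GSK3i/L, and 6 lower at 24 against 8 days of GSK3i/L. With only the 2 groups, 10 were higher in 2i/L against MEKi/L, 3 lower in MEKi/L against GSK3i/L and 3 lower at 24 days. The count lower in MEKi/L against GSK3i/L was 2 with a filter at 1 RPM, and that at 24 days was 10 with quantile normalization. Without both replicates 1, 15 were higher in 2i/L against MEKi/L.

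Leaving out 1 library at a time gave 4 to 13 higher and 3 to 5 lower in GSK3i/L against S/L, 2 to 12 higher and 4 to 7 lower in 2i/L against MEKi/L, 5 to 12 higher in MEKi/L against GSK3i/L, and 0 to 1 higher and 4 to 22 lower at 24 days. With 1 library of GSK3i/L at 24 days left out, the other is assumed to vary like the other groups.

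Every same-number pair of MEKi/L with GSK3i/L at 8 days correlated above 0.1, as in no other comparison, but MEKi/L replicate 2 correlated more with GSK3i/L replicate 3 (r = 0.380). Over all groups, 8 of 26 pairs of libraries with the same number correlated above 0.1 (r from -0.31 to 0.67, median 0.037). Of 52 pairs with other numbers, 15 did so (r from -0.59 to 0.39, median -0.0045), and pairing by number is not established. With the replicate block, 15 genes were higher and 6 lower in MEKi/L against S/L, 8 and 5 in GSK3i/L against S/L, 15 and 11 in 2i/L against S/L, 16 and 9 in 2i/L against GSK3i/L, 7 and 7 in 2i/L against MEKi/L, 9 and 7 in MEKi/L against GSK3i/L, and 0 and 11 at 24 against 8 days (1 higher at an unadjusted p under 0.05 without the block). Depth limits the genes below 1 RPM, where single reads move a fold change.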
